A study of Homo sapiens with 6 samples.

Results

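Ribosomal protein pseudogenes are the subject of this section, described in non-polysomal RNA of HCT116 cells that were parental or carried a LARP1 knockout. They were chosen by name: a gene symbol made of a ribosomal protein symbol, the letter P and a number, with an annotated biotype of pseudogene. The rule found 60 such genes among the 14574 genes of the deposited table, and used no measured value. Of the 60, 49 were annotated as processed, 9 as transcribed processed and 2 as transcribed unprocessed pseudogenes. They belonged to 36 parent genes, all protein-coding and all in the table. The GENCODE 29 annotation holds 1133 pseudogenes that match the same rule, so the table covered 5.30% of them. No gene of the table had fewer than 2 libraries with 5 reads or more, so copies with fewer reads were not seen.

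A processed pseudogene is a DNA copy of an mRNA that was reverse transcribed and inserted elsewhere in the genome, without the introns of its parent gene and usually without its promoter. Ribosomal protein genes are among the most frequent parents of such copies in mammals. Their mRNAs begin with a 5′ terminal oligopyrimidine (TOP) motif, and LARP1 is an RNA-binding protein that binds the cap and the TOP motif of these mRNAs when mTOR is inhibited. A copy that is nearly identical to its parent can be assigned reads that came from the parent mRNA, so the value of such a pseudogene is uncertain.

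HCT116 is a human colorectal carcinoma line. All 6 libraries came from cells given the mTOR kinase inhibitor TAK228 for 48 h at 250 nM, renewed at 24 h; there was no untreated group. The groups used here are parental cells sequenced by RNA-seq, LARP1 knockout cells sequenced by RNA-seq, and transcription start site (TSS) libraries of the same parental RNA, which were decapped and ligated to an oligonucleotide, with 2 libraries each. The labels do not say how the knockout was made or whether it is 1 clone. They call the 2 RNAs of a genotype biological replicates without naming cultures, so p-values do not cover other clones or cultures. In the limma fit of knockout against parental libraries, the spread used for a gene was that of genes of similar level, not its own. The RNA was the pooled 40S to 80S part of a gradient, so a lower value can be less RNA in the cell or RNA moved to other fractions, and these cannot be told apart.

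Of 10 families that held both pseudogenes called lower in the knockout and pseudogenes not called, 5 are shown first as sequence, each with 2 or 3 of its copies; RPS2 is among them because its copy RPS2P5 was the most abundant. Each is a 60-base stretch of the parent's coding sequence and the aligned bases of its pseudogenes, from GENCODE 29 on GRCh38, written 5′ to 3′ on the strand of the gene; capitals mark bases that differ from the parent, and positions count from 1 at the A of the parent's start codon. For RPL10 (chrX:154389955-154409168, plus strand), which joins the 60S subunit late in its assembly, coding bases 392 to 451 are shown.
RPL10: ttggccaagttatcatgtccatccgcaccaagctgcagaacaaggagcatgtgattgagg
RPL10P9: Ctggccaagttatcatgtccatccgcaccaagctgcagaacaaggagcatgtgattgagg
RPL10P16: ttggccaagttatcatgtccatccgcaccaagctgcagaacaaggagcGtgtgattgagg
RPL10P13: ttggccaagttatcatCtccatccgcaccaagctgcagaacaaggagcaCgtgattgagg
RPL10P9 lies at chr5:168616743-168616802 (plus) and differs by T392C, RPL10P16 lies at chr19:12643469-12643528 (minus) and differs by A440G, and RPL10P13 lies at chr12:75688981-75689040 (minus) and differs by G408C and T441C.

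For RPL23A, a protein at the nascent chain exit of the 60S subunit, coding bases 18 to 77 are shown.
RPL23A: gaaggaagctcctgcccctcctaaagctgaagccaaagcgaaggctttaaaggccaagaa
RPL23AP42: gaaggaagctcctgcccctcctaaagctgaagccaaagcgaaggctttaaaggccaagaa
RPL23AP7: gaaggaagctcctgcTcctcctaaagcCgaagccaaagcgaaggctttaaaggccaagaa
RPL23AP82: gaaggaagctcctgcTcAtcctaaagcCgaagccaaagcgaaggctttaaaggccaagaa
RPL23AP42 (chr3:161429521-161429580, minus) matches the parent at every base here. RPL23AP7 (chr2:113612174-113612233, minus) and RPL23AP82 (chr22:50798669-50798728, plus) share C33T and T45C, and RPL23AP82 also carries C35A.

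For RPL32, a 60S protein, coding bases 92 to 151 are shown, where RPL32P29 (chr14:49577647-49577706, minus) has 9 mismatches and RPL32P3 (chr3:129396366-129396425, minus) has 4.
RPL32: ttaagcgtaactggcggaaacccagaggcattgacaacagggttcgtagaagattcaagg
RPL32P29: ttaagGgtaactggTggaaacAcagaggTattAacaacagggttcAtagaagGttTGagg
RPL32P3: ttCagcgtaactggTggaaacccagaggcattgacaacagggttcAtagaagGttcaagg
For RPL13A, a 60S protein also known from the GAIT translation-silencing complex, the first 60 coding bases are shown, with RPL13AP5 at chr10:96750288-96750347 (plus) and RPL13AP20 at chr12:12875499-12875558 (plus).
RPL13A: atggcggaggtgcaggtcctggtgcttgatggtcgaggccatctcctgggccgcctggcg
RPL13AP5: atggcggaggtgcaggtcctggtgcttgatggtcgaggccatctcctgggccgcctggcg
RPL13AP20: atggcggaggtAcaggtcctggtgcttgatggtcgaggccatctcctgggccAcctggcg
For RPS2, a 40S protein near the mRNA entry channel, the first 60 coding bases are shown, with RPS2P5 at chr12:118246084-118246143 (plus) and RPS2P46 at chr17:19446793-19446852 (minus).
RPS2: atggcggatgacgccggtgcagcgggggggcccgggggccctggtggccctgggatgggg
RPS2P5: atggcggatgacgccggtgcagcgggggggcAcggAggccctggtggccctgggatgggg
RPS2P46: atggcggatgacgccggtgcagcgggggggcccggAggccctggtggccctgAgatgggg
RPL13AP5 and RPL13A have the same bases over their stretch, and RPS2P5 and RPS2P46 share G36A.

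Values are normalised read counts, which are reads divided by 1 size factor per library, as the authors deposited them. The 6 libraries held between 19038642 and 26955481 reads, of which 55.2% to 63.1% lay in the mitochondrial gene MT-RNR2, with the higher shares in the knockout. LARP1 itself stood at 633 and 770 in the parental, 356 and 284 in the knockout and 717 and 745 in the TSS libraries. Its log2 fold change on the scale log2(value + 1) was -1.13 (SE 0.18, limma adjusted p = 2.86e-09), so LARP1 reads fell in both knockout libraries but were not absent. The epithelial genes KRT8, KRT18, EPCAM, CDH1 and CDX2 were detected in every library. KRT20, which was also looked up, was not among the genes of the deposited table.

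Most ribosomal protein pseudogenes had fewer reads in the LARP1 knockout. In the limma fit over 14561 genes at a Benjamini-Hochberg adjusted p under 0.05, 45 of 60 were lower, 0 were higher and 15 were not called, where 25.1% of all genes tested were called lower and 3.77% higher. At an unadjusted p under 0.05, where no share of all genes is given, 2 of the 60 were higher, RPL32P3 and RPL13AP20. These 2 were called higher by edgeR's quasi-likelihood test on the recovered reads, which called 42 lower, against 17.9% of all genes lower and 14.6% higher. The median log2 fold change was -2.60 over the pseudogenes and -3.08 over their 36 parent genes, all of which were lower. The median over all genes was -0.29, and after centring every library at the level of its median gene the pseudogene median was -2.29 and the parent median -2.77. The centred fit also called 42 pseudogenes lower and 2 higher, where 16.2% of all genes were lower and 14.6% higher.

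Pseudogenes of other genes were counted in the same fit. Of 456 pseudogenes that copy neither a ribosomal protein gene nor another listed TOP gene, 71 were lower and 17 higher, with a median log2 fold change of -0.27, beside -0.29 for all genes. Of 16 pseudogenes of other TOP mRNAs, from a list of translation factor and related genes, 12 were lower with a median of -2.89. Large subunit copies were lower in 32 of 43 cases and small subunit copies in 13 of 17. Both knockout libraries lay below both parental ones for 52 of the 60, while 50.4% of all genes did so, 3 of the 60 lay above them where 12.4% of all genes did, and 5 overlapped.

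**Figure D1:**
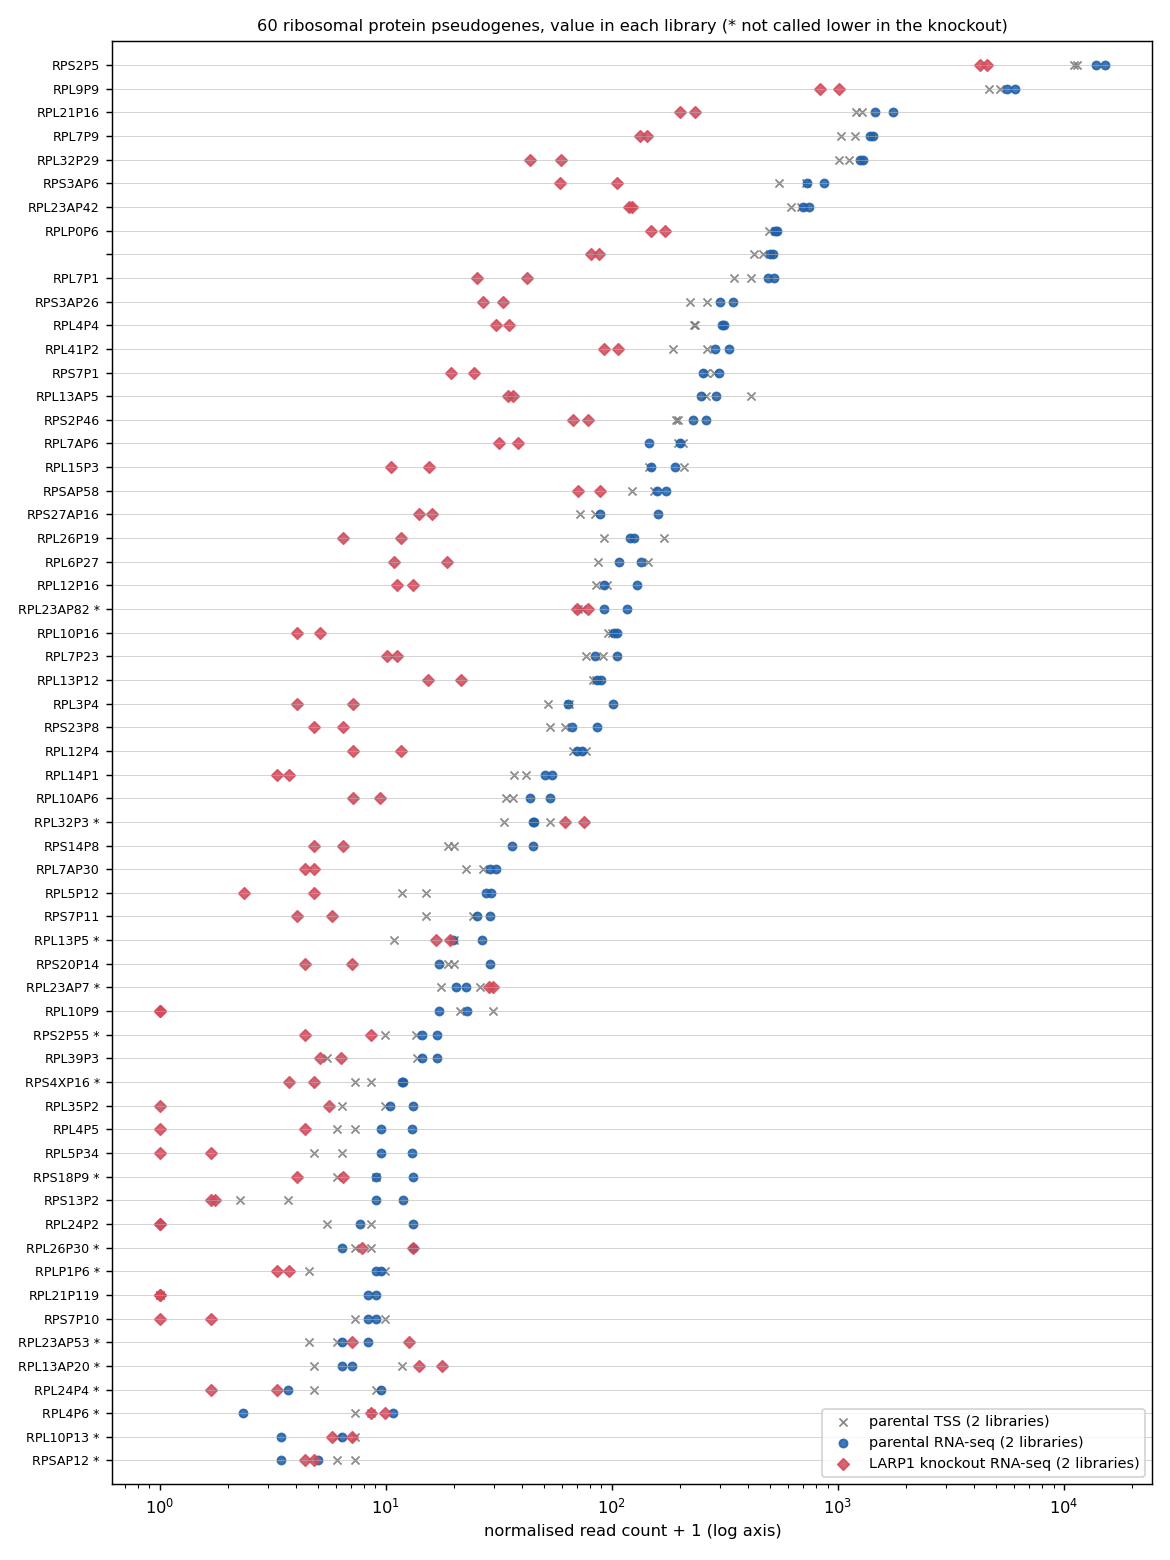
Normalised read count + 1 (log axis) of each of the 60 ribosomal protein pseudogenes in 2 parental RNA-seq, 2 LARP1 knockout RNA-seq and 2 parental TSS libraries, ordered by parental mean; an asterisk marks the 15 not called lower, and 1 row carries no name. The knockout points lie left of both parental points for 52 of the 60, and TSS points mostly lie near the parental ones.

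The pseudogenes spanned a wide range of levels, from a parental mean of 3.24 to 14569, with a median of 61.4 in parental and 9.19 in knockout libraries. In 17 of the 60, the knockout libraries did not both reach 5 reads, and 3 copies had no read in either knockout library. All 60 passed the filter, which asked 2 or more of the 4 RNA-seq libraries for a value of 1 or more. In 51 both knockout values were 1 or more. In 6 copies neither knockout value reached 1, so they passed only through their parental values and had to differ: RPL10P9, RPL24P2, RPL21P119, RPS7P10, RPL5P34 and RPS13P2. All 6 are among the 45 called lower, which leaves 39 of the other 54. The splits of called copies by subunit, annotation, sequence, level and position still include them. The 39 are not free of selection by level, as every gene of the table had 2 or more libraries with 5 reads. The 17 copies above could meet this only with parental or TSS libraries. RPL14P1 is among both the 17 and the 39, with 37 and 44 reads in the parental and 3 and 4 in the knockout libraries.

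Among the small subunit copies, RPS2P5 was the most abundant pseudogene of all. It (ENSG00000240342.3) stood at 13922 and 15217 in the parental and 4567 and 4242 in the knockout libraries, a log2 fold change of -1.73 (SE 0.14, limma adjusted p = 2.23e-31). Its parent RPS2 changed by -1.75. RPS2P5 lies at chr12:118246084-118246962 on the plus strand, inside an intron of TAOK3, a kinase gene on the opposite strand that was itself lower (-1.07), and 17.7% of its stretches of 150 bases are identical to the RPS2 transcript. RPS2P46, a less abundant copy on chromosome 17, stood at 227 and 261 against 77.2 and 66.2 and also changed by -1.75 (limma adjusted p = 2.65e-13). For both copies the knockout values lay well below the parental ones, with no overlap.

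RPS3AP6 and RPS3AP26, copies of the 40S protein gene RPS3A, were also called lower. RPS3AP6 stood at 730 and 871 in the parental and 104 and 58.0 in the knockout libraries (-3.34), and RPS3AP26 at 299 and 342 against 26.0 and 32.1 (-3.43), while RPS3A changed by -3.13. RPSAP58, a copy of the gene of the 40S protein RPSA that is also known as the laminin receptor precursor, fell least among the called copies. Its values were 157 and 172 in the parental and 87.8 and 69.6 in the knockout libraries, with no overlap, and its change was -1.06 (SE 0.24, limma adjusted p = 6.11e-05). RPSA itself changed by -1.24.

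Among the large subunit copies, RPL9P9 had the highest level. It stood at 5578 and 6095 in the parental and 1005 and 828 in the knockout libraries, a change of -2.67 (SE 0.15, limma adjusted p = 2.06e-69) beside -2.69 for RPL9. RPL21P16, at 1459 and 1756 against 232 and 199, changed by -2.89 beside -2.82 for RPL21, and its 483 bases are identical to the parent transcript. RPLP0P6, a copy of the gene of the stalk base protein RPLP0, stood at 537 and 524 against 170 and 147 and changed by -1.74 beside -1.73. RPL41P2, a copy of the gene of a very short 60S peptide, changed by -1.64 beside -1.50. RPL39P3, at 13.5 and 15.8 against 5.35 and 4.10, is identical to its parent transcript over its 156 bases, and changed by -1.46 (limma adjusted p = 0.0432, edgeR adjusted p = 0.109) beside -2.76 for RPL39.

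The copies of RPL7, another 60S protein gene, were also called lower. RPL7P9 stood at 1388 and 1427 in the parental and 142 and 132 in the knockout libraries (-3.35, limma adjusted p = 5.72e-76), and RPL7P1 at 518 and 490 against 24.4 and 41.0 (-3.95, limma adjusted p = 1.90e-64). RPL7 changed by -3.44. RPL4P4, a copy of the gene of a protein lining the exit tunnel, changed by -3.24 and RPL4 by -2.85. RPL23AP42 and RPL13AP5 changed by -2.58 and -2.91, beside -2.51 and -3.09 for their parents RPL23A and RPL13A.

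RPL10 had the steepest fall of the 36 parent genes. RPL10P16 stood at 101 and 105 in the parental and 3.06 and 4.10 in the knockout libraries, a change of -4.51 (SE 0.41, limma adjusted p = 4.43e-27) beside -4.36 for RPL10. RPL10P9 stood at 16.2 and 21.9 against 0 and 0, so it was at least 17.6-fold lower, taking 3 reads over both knockout libraries as the floor. RPL24P2 and RPL21P119 were also at 0 in both knockout libraries, at least 8.72-fold and 7.09-fold lower.

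The change of each pseudogene was set beside that of its own parent. With changes taken as the log2 ratio of group means, and 0 set to the floor, 38 of 60 copies were within 0.5 of their own parent and 43 within 1. Leaving out the 3 copies at 0, whose values are only bounds, 35 of 57 were within 0.5 and 40 within 1. Over the 35 copies with a mean of at least 20, 27 were within 0.5 and 31 within 1. Over the 32 copies with a mean of at least 20 and with a parent-like copy making up at least 50% of their exonic bases, 27 were within 0.5 and 31 within 1 of their parent. In those 32, the median absolute difference was 0.163 from the own parent and 0.636 from the other parents. The limit of 50% was set after the values were seen and takes out RPL32P3, RPL23AP82 and RPL23AP7, which lay far from their parents. Over all 60 genes the changes of copy and parent had a Pearson r of 0.422 and a Spearman rho of 0.581, over the 35 these were 0.650 and 0.824, and over the 32 they were 0.929 and 0.927. These correlations are across genes that share 4 libraries and, within families, a parent, and they describe the table only.

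**Figure D2:**
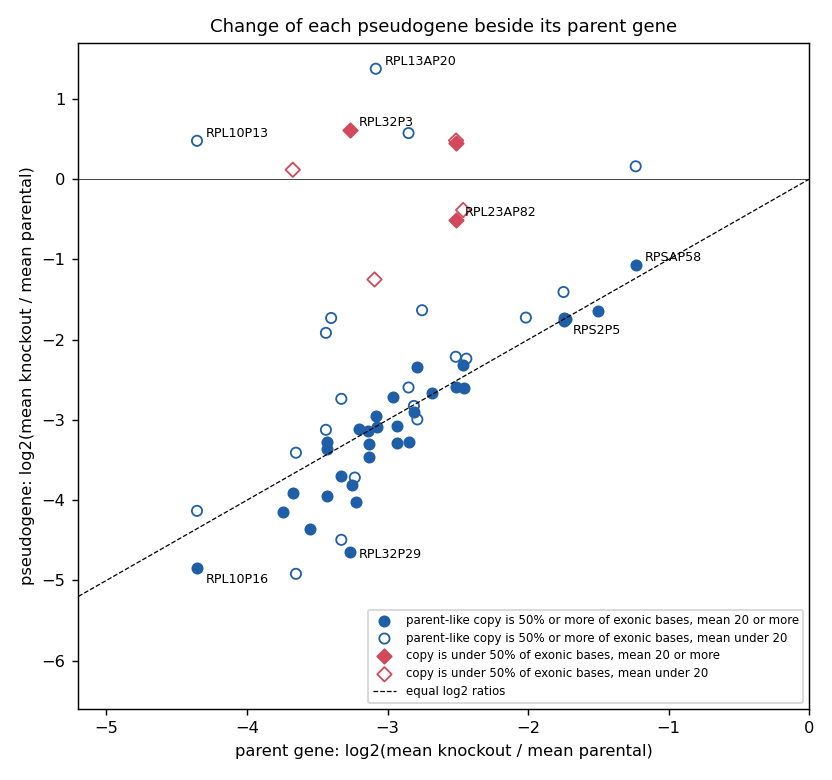
Log2 ratio of mean knockout to mean parental value for each pseudogene (vertical axis) and its parent gene (horizontal axis); the dashed line marks equal ratios, filled points have a mean of at least 20, and colours give the share of exonic bases that the parent-like copy makes up. Of the 32 filled blue points, 31 lie within 1 of the line, and the 7 red points lie above it.

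How far copies can be told from parents by reads was read from the annotation. Identity to the parent transcript ran from 78.8% to 100% with a median of 98.5%. In 30 of 60 copies at least 1 stretch of 150 bases, the read length, was identical to the parent transcript, and RPL21P16 and RPL39P3 were identical in all stretches. Copies with such a stretch were called lower in 28 of 30 cases, and those with none in 17 of 30. Of the copies that had to differ, RPL21P119 is among the 28. RPL10P9, RPL24P2, RPS7P10, RPL5P34 and RPS13P2 are among the 17. RPL10P9 had no such stretch, and RPS2P46, in which 0.954% of stretches were shared, was within 0.02 of RPS2.

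By identity, 33 of 35 copies at 98% or more were called lower, 8 of 11 from 95% to under 98%, and 4 of 14 under 95%. The 4 of lower identity were RPL32P29, RPL5P12, RPS14P8 and RPL24P2, of which RPL24P2 had to differ. Level moves with the same split: 32 of 35 copies with a mean of at least 20 were called lower and 13 of 25 below that. The 13 include all 6 copies that passed the filter only through their parental values and had to differ. Identity and level cannot be told apart by these counts. Nearly whole copies prevailed, with at least 99% of the parent's coding sequence in 47 and the start codon in 53.

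**Figure D3:**
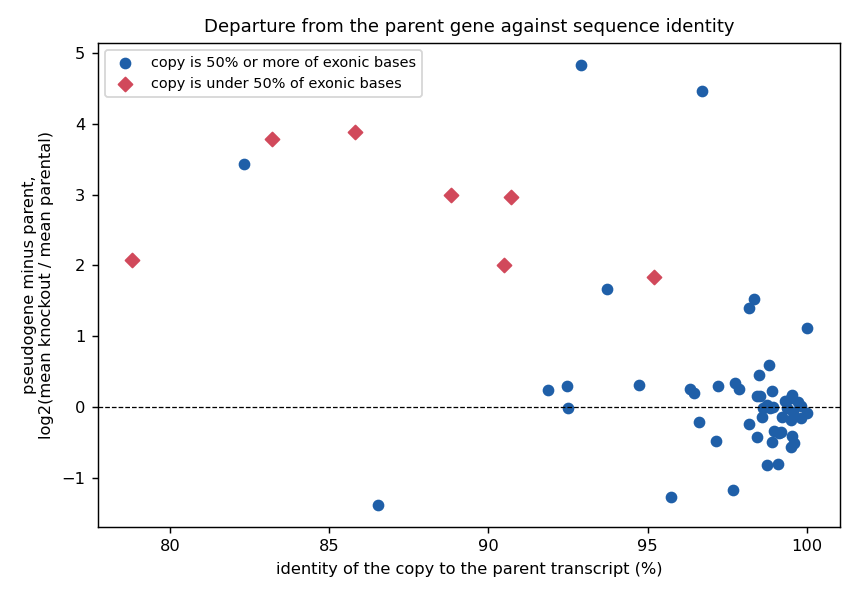
Difference between a pseudogene and its parent in log2(mean knockout / mean parental) (vertical axis) against identity of the copy to the parent transcript in percent (horizontal axis), for 60 pseudogenes. Blue points near 0 crowd above 98% identity, and the 7 red points, whose copy is under 50% of exonic bases, lie above 1.

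Pseudogenes whose annotated transcripts are mostly other sequence were not called lower. In 7 pseudogenes the parent-like copy made up less than 50% of exonic bases, and 0 of the 7 were called lower, while 45 of the other 53 were. The split by that limit has no test. The 7 were RPL32P3, RPL23AP82, RPL23AP7, RPL23AP53, RPL13P5, RPL26P30 and RPS18P9, with a median change of 0.15. RPL13P5, RPL26P30, RPL23AP53 and RPS18P9 had means under 20, a level at which only 13 of 25 copies were called lower. RPS18P9 changed by -1.10 (95% interval -2.36 to 0.17). Knockout values lay below both parental ones in RPL23AP82, RPL13P5 and RPS18P9, above them in RPL32P3 and RPL23AP7, and overlapped in RPL26P30 and RPL23AP53. By annotation, 3 of 9 transcribed processed, 0 of 2 transcribed unprocessed and 42 of 49 processed pseudogenes were called lower.

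RPL32P3, on chromosome 3, has 4504 exonic bases over up to 5 exons, of which the RPL32 copy is 6.11%. It stood at 44.4 and 43.9 in the parental, 74.1 and 60.8 in the knockout and 32.3 and 52.1 in the TSS libraries, so both knockout libraries were above both parental ones. Its log2 fold change was 0.59 (95% interval 0.03 to 1.16, limma adjusted p = 0.110), which did not pass the threshold. After centring on the median gene it was 0.90 (limma adjusted p = 0.00477), and edgeR gave 0.90 (edgeR adjusted p = 0.00304), so its call depends on the scaling. RPL32P3 went from 0.156% and 0.158% of the reads of its parent to 2.38% and 2.23%.

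The other pseudogene of RPL32, RPL32P29, changed by -4.64 where its parent changed by -3.27. It stood at 1286 and 1253 in the parental and 58.8 and 42.3 in the knockout libraries, or 25.1-fold lower (SE of the log2 change 0.20, limma adjusted p = 9.12e-119). Its log2 ratio of means differed from that of its parent by -1.38, the lowest such difference among the 60. It is 86.5% identical to RPL32, and none of its stretches of 150 bases matches RPL32. All of them match an annotated transcript of another gene, and it lies at chr14:49577392-49577794 within exons of RPS29, a 40S protein gene on the same strand. RPS29 stood at 18130 and 19079 against 4019 and 3809, a change of -2.25, which is also smaller than that of RPL32P29. RPL12P16 likewise lies within exons of NBEAL1 on the same strand, where RPL12P16 changed by -3.16 and NBEAL1 by -0.89.

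**Figure D4:**
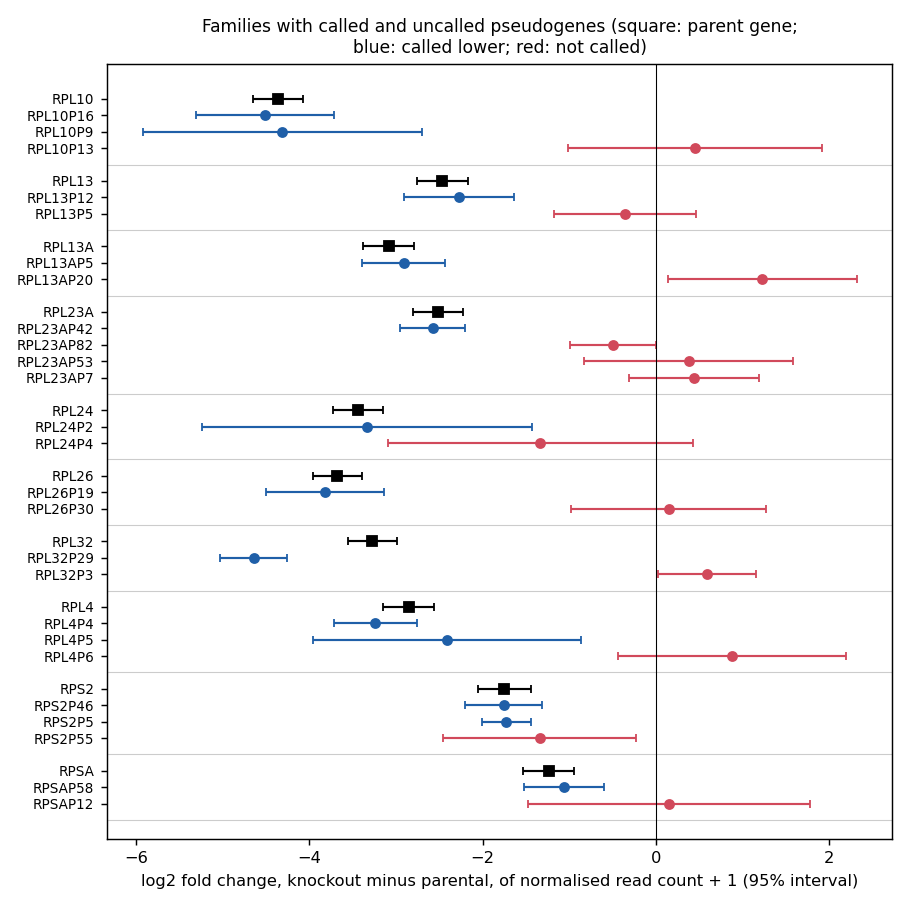
Log2 fold change, knockout minus parental, of normalised read count + 1 with its 95% interval for the 10 parent genes (squares) that have both called (blue) and uncalled (red) pseudogenes. Most uncalled copies lie to the right of their parent, RPL10P13 and RPL13AP20 the furthest, and RPL32P29 lies to the left of RPL32.

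In 10 families called and uncalled copies occurred together. In the RPL23A family, RPL23AP42 stood at 740 and 700 in the parental and 121 and 118 in the knockout libraries. RPL23AP82 stood at 91.5 and 116 against 77.2 and 69.0, a change of -0.49 (limma adjusted p = 0.133), and RPL23AP7 at 21.5 and 19.5 against 27.5 and 28.7, a change of 0.44 (limma adjusted p = 0.420). RPL23AP82 was 0.03 when the TSS libraries stood in for the parental ones. In RPL23AP82 and RPL23AP7 the RPL23A copy is 11.04% and 22.04% of exonic bases, and the stretch printed above differs from the parent in both.

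In the RPL10 family, RPL10P13 had 5.38 and 2.44 in the parental and 6.11 and 4.78 in the knockout libraries, that is 8 reads or fewer in each, against the steep fall of RPL10P9 and RPL10P16. RPL10P13 is a partial copy of 303 bases with 92.9% identity. RPL13AP20 stood at 5.38 and 6.09 against 16.8 and 13.0 (1.23, limma adjusted p = 0.0821), above in both knockout libraries, and was called higher after centring and by edgeR (edgeR adjusted p = 0.0338). RPL13AP5, its relative, stood at 246 and 288 against 33.6 and 35.5. RPL4P6 stood at 1.35 and 9.75 against 7.64 and 8.88, and RPSAP12 at 4.04 and 2.44 against 3.82 and 3.41, which overlap. With 5 reads or fewer in each library, the 95% interval of RPSAP12 was -1.48 to 1.77 and includes the change of RPSA. The last 4 uncalled copies, RPS4XP16, RPLP1P6, RPS2P55 and RPL24P4, had changes of -1.48, -1.41, -1.34 and -1.33 at low counts.

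A test of the difference from ribosomal protein mRNAs was made on all genes by subtracting the mean log2 change of the 78 ribosomal protein genes. Against that mean, 21 of the 60 pseudogenes were higher and 13 lower in limma, while 95.2% of all genes were higher and 0.865% lower. By edgeR the counts were 17 and 15, against 93.5% and 1.04% of all genes. Of the 35 copies with a mean of at least 20, limma called 9 higher and 13 lower. Of the 25 copies below that, limma called 12 higher and 0 lower, and edgeR 9 and 2. The log2(value + 1) scale understates the fall of such low copies, and no share of all genes is given by level. The 21 became 35 with a pseudocount of 5 and 13 where every library had to reach 5, which leaves fewer copies tested. The 13 lower ones became 8 with a pseudocount of 5. Shares of all genes are not given for these settings or without single libraries, so these counts show only that the number called depends on the setting. Of the 13 below it, RPL32P29 at -1.84 (limma adjusted p = 1.20e-08) and RPL10P16 at -1.71 (limma adjusted p = 0.000400) were lowest. The 13 also became 8 without knockout replicate 1, 8 without parental replicate 1 and 5 without parental replicate 2. RPS2P5, RPLP0P6, RPS2P46, RPL41P2 and RPSAP58, whose parents also fell less than the mean, were above it by 1.08, 1.07, 1.05, 1.17 and 1.74. Others of the 21 did not go with their parents. RPL32P3 was above the mean by 3.40 (limma adjusted p = 3.69e-09), RPL13AP20 by 4.03 and RPL10P13 by 3.26. Their parents RPL32, RPL13A and RPL10 were at -0.47, -0.28 and -1.55. RPL23AP82 was above it by 2.31 (limma adjusted p = 4.48e-08), where RPL23A was at 0.29.

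Genes that surround the pseudogenes gave another comparison. Of the 60, 25 overlapped a protein-coding gene, and 17 of these lay wholly in an intron. All 12 of the intronic copies on the strand opposite to the host were called lower, and 3 of 5 on the same strand. The 12 include RPS13P2, which had to differ. In 13 cases the host was tested: 5 hosts were lower and 0 higher, with a median change of -0.33 for hosts and a range of -1.74 to 0.08. In the same limma fit 25.1% of all genes tested were called lower and 3.77% higher. The 17 intronic pseudogenes had a median of -2.60. RPL41P2 changed by -1.64 in an intron of HERC2, which stood at 299 and 264 in the parental and 275 and 271 in the knockout libraries, and RPL7P23 by -3.14 in an intron of WDR41, which changed by 0.08. Whether the counting used strand is not given in the sources used here, so reads from both strands cannot be told apart.

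Reads of all 60 pseudogenes came to 22530 and 26947 in the parental and 9610 and 9752 in the knockout libraries. As a percent of the reads of their parents, a measure that needs no scaling between libraries, they made up 1.79% and 1.92% in the parental, 2.60% and 2.62% in the knockout and 1.78% and 1.75% in the TSS libraries. The rise was not seen without 1 gene, RPS2P5: the values were then 0.969% and 1.03%, 0.983% and 0.950%, and 0.973% and 1.00%. The reads of RPS2 were kept among those of the parents here. RPS2P5 had 16.3% and 15.8% of the reads of RPS2 in the parental and 16.3% and 16.3% in the knockout and 15.1% and 14.2% in the TSS libraries. An exact permutation test of 2 against 2 libraries cannot go below p = 0.333, so no test is given for these shares.

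The TSS libraries, in which capped ends of the parental RNA were captured, were compared with RNA-seq of the same RNA. In limma 1 of 60 pseudogenes was lower in TSS than in parental RNA-seq libraries and 0 were higher, against 0.454% and 0.0689% of all genes. The 1 was RPS2P5, at 11472 and 11115 in the TSS libraries, a change of -0.37 (limma adjusted p = 0.0442), and edgeR called 0 lower and 0 higher (0.0413% and 0.0689% of all genes). At an unadjusted p under 0.05, limma had 17 lower and 0 higher, and edgeR 12 lower and 1 higher. After centring on the median gene, limma had 9 lower and 2 higher. No share of all genes is given at this threshold, so nothing is concluded from these unadjusted counts. The count at the adjusted threshold was also taken without single libraries, again with no share of all genes. The limma count was 0 without either TSS replicate and 5 without parental RNA-seq replicate 1. With the shared RNA sample as a replicate block, which the labels give, 11 were lower and 0 higher, against 4.34% and 0.358% of all genes. RPL21P16 (-0.37), RPL7P9 (-0.34), RPL7P1 (-0.42) and RPL4P4 (-0.42) were among the 11. The median change over the 60 was -0.34 beside -0.25 for their parents and -0.11 for all genes.

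**Figure D5:**
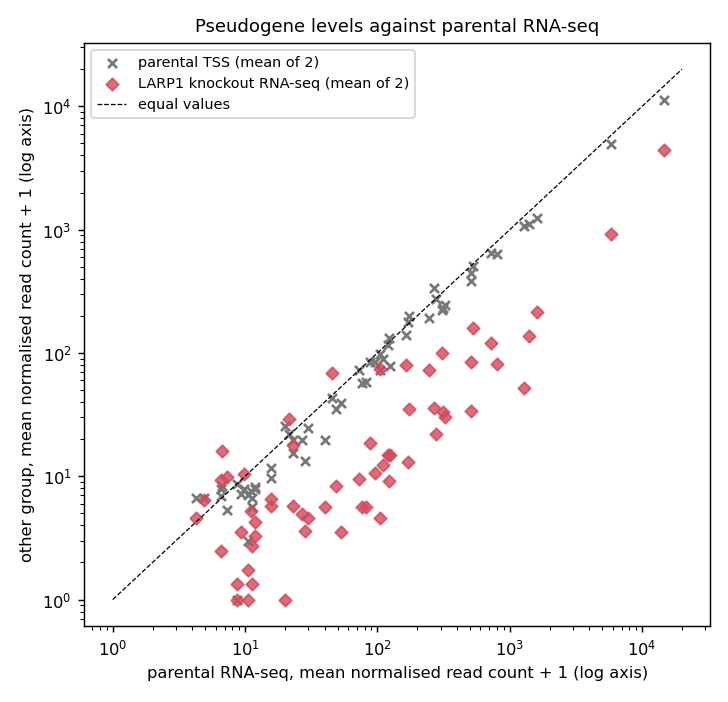
Mean normalised read count + 1 (log axes) of the 60 pseudogenes in parental TSS libraries (crosses) and LARP1 knockout RNA-seq libraries (diamonds) against parental RNA-seq, n = 2 per mean; the dashed line marks equal values. Crosses lie along the line and most diamonds lie below it.

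RPL21P119, a copy with 6 reads in each parental RNA-seq library, had none in both TSS and both knockout libraries, which gave the largest log2 difference between TSS and RNA-seq libraries among the 60 (-3.12). At these counts it was not called (limma adjusted p = 0.283).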

How the data were processed

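RNA-seq and TSS libraries of non-polysomal RNA were compared, with groups taken from the labels. The authors deposited 1 table with signal per gene and library, which are gene read counts divided by a size factor, together with their own ratio, log2 fold change, score and p-value columns, which were not used. The submitters' processing notes name STAR 2.6, RSEM, SAMtools, DESeq2 and GRCh38; no source used here gives the annotation release or strand setting. The size-factor scaling, and whether it used the ERCC spike-ins named in the labels, affects every fold change. Each value was a whole multiple of the worth of 1 read in its library (100% of values, within 0.001 reads), so whole reads were recovered for the count tests.

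Differences were tested with limma 3.58.1 (trend) on log2(value + 1) for genes that reached 1 in 2 or more of the 4 libraries, two-sided, with Benjamini-Hochberg adjustment over all genes tested. A fold change on this scale understates that of low genes. In the knockout fit the prior degrees of freedom were infinite, so limma took each variance from the trend with level alone. Standard errors, intervals and p-values of that fit do not measure the spread of a gene between its own libraries. edgeR 4.0.16 and DESeq2 1.42.0 on recovered reads, in R 4.3.3, were alternatives, as were other scalings, filters, pseudocounts, a replicate block and leaving out each library. The fits were tested on simulated data. Pseudogenes were matched to GENCODE 29 by identifier (60 of 60, of which 58 had the same version) and aligned locally to their parents' transcripts with Biopython 1.88. Depth ran from 19038642 to 26955481 reads, and shares and folds of copies with few reads carry large counting error. Replicate numbers did not pair parental and knockout samples (correlation of deviations 0.006 over 11786 genes); TSS and RNA-seq libraries share RNA samples by the labels (correlation 0.0759).

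The pseudogenes, lists and tests were chosen with earlier results of these data known. Genes named by rule were LARP1, the 15 most abundant pseudogenes, any called higher, the 5 with the smallest adjusted p against the ribosomal protein mean, the 5 with the smallest between TSS and RNA-seq, and the parents; 1 parent gene and its copy are not reported here by name. The other pseudogenes and the host genes named in the text were chosen after their values were seen.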

Additional observations from a re-analysis of the deposited data

How the results depend on the processing

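All 36 parent genes were lower in every alternative run. The count of lower pseudogenes was 35 to 40 without single libraries, 38 with DESeq2, 39 with TSS libraries as parental, and 27 where each library had to reach 5, which leaves fewer copies tested; 36 of the 45 kept their call in every alternative that tested them. No count of all genes is given for the minimum of 5, nor the number of copies tested there. For TSS libraries as parental, no count of all genes called lower is given. The lower counts under these 2 settings show only that the number called depends on the setting. Higher pseudogenes numbered 2 with TMM factors, after centring and with edgeR, and 1 with a minimum of 5, with no intensity trend and with TSS libraries as parental. RPL32P3 was then at 0.89 (TMM, limma adjusted p = 0.00608), 0.90 (centred), 0.90 (edgeR) or 0.70 (TSS, limma adjusted p = 0.0472), and RPL23AP82 turned to 0.034 with TSS libraries as parental. The other 475 comparisons of the genes named by the rule, these 2 included, kept direction and call. They leave out copies named after their values were seen, such as RPL13AP20, not called in 10 of 15 alternatives, and RPL39P3, lower in 4 of 14.

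The median change of pseudogenes was -2.41 (DESeq2), -2.34 (TMM), -2.29 (centred), -2.40 (edgeR), -2.11 (TSS as parental), -2.92 (pseudocount 0.1) and -1.89 (pseudocount 5), and -2.64 to -2.51 without single libraries. That of parents was -2.78, -2.79, -2.77, -2.79 and -2.76 under the first 5, and -3.16 to -3.01 without single libraries. All genes called lower were 1557 (DESeq2), 2365 (centred) and 1962 (no trend), and 1673 to 4294 without single libraries. Those called higher were 983 (DESeq2), 1971 (TMM), 2119 (centred), 2130 (edgeR), 282 (no trend) and 925 (TSS as parental), and 262 to 469 without single libraries. The causes were not tested.

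Pseudogenes above the ribosomal protein mean numbered 13 with a minimum of 5, 35 with pseudocount 5, and 16 to 18 without single libraries. Those below it numbered 8 with pseudocount 5, and 8 without knockout replicate 1, 13 without knockout replicate 2, 8 without parental replicate 1 and 5 without parental replicate 2. Pseudogenes lower in TSS libraries numbered 0 with TMM, centring, edgeR, no filter and pseudocount 0.1, and 0 to 5 without single libraries, the 5 being without parental RNA-seq replicate 1. With the replicate block, 44 pseudogenes were lower and 0 higher in the knockout, 19 above and 13 below the ribosomal protein mean, and 11 lower in TSS libraries, and all genes came to 2771 lower and 388 higher; the block in the knockout rests on numbers that do not pair the samples. Pseudogene reads as a percent of parent reads averaged 1.86%, 2.61% and 1.77% in parental, knockout and TSS libraries. They averaged 1.00%, 0.966% and 0.987% without RPS2P5 but with RPS2 kept among the parents, and 1.75%, 2.46% and 1.66% for the 18 with a mean of at least 100. Among the 45 called lower, 9 lost the call somewhere: RPS20P14, RPL39P3, RPL35P2, RPL4P5, RPL5P34, RPS13P2, RPL24P2, RPS7P10 and RPL21P119, all with low counts. The edgeR fit against the ribosomal protein mean, its block and the edgeR fit of TSS libraries were chosen after the data were seen. For most of these alternatives, counts against the ribosomal protein mean and in TSS libraries are given without the share of all genes.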
